A study of Mus musculus with 8 samples.

Results

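The 52 genes described here drive or mark the cell division cycle: cyclins and their kinases, DNA replication factors, mitotic kinases, spindle and centromere proteins, and inhibitors of cyclin-dependent kinases. They were chosen by name from a list of such genes, and were matched through RefSeq accessions or gene names in the array files. Of the 52, 39 had a probe well above background on at least 4 of 8 arrays and 13 were too dim, among 23893 named genes on the array, of which 15890 were measured. RNA came from the hippocampi of C57BL6/J female mice, 8 weeks of age, that had spent 4 weeks in an enriched environment, which all samples share. The mice had received either antibodies against CD4, a receptor that marks helper T cells (4 samples, which the labels call CD4 depleted), or control antibodies (4 samples). Whether each sample is a different animal is not stated in the labels, so p-values refer to the variation among these samples only, and part of it may be technical.

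A dividing cell commits to a new round with D-type cyclins bound to Cdk4 or Cdk6, copies its DNA with cyclin E and cyclin A bound to Cdk2, and enters mitosis with cyclin A and B bound to Cdk1. Origins are licensed before replication by Cdt1, which loads the Mcm helicase, and mitosis ends when the anaphase-promoting complex (APC/C) marks cyclins for destruction. Most cells of the adult hippocampus are neurons that no longer divide. Dividing cells there include neural progenitors of the dentate gyrus and oligodendrocyte precursors, while D-type cyclins and Cdk inhibitors are also expressed by cells that do not divide.

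Promoters of genes needed for mitosis often carry CCAAT boxes, bound by the factor NF-Y, and a cell cycle homology region (CHR), bound by the MuvB complex, while genes of DNA replication more often carry E2F sites. The promoter stretches below belong to 8 of the 12 members with an unadjusted p under 0.05 and show which of these letters they hold. Ccna2 and Ccnd1 have no entry in the table, and those of the Cdk inhibitors Cdkn1a and Cdkn2c are not printed. They are from RefSeq, build GRCm38.p6, 5′ to 3′ on the gene's strand. Capitals mark matches on either strand to CCAAT, to the CHR letters TTTGAA or TTTAAA, or to the E2F-like letters TTCCCGC or TTGGCGC. Each runs from 120 bases before the annotated start to 25 bases after it, except Mki67 (200 before, none after) and Cdt1 (60 before, 30 after). The first 6 are genes of mitosis and G2 with lower levels in the anti-CD4 group, and the last 2 are genes of DNA replication with higher levels.

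Aurka, chr2:172370546-172370690, minus strand: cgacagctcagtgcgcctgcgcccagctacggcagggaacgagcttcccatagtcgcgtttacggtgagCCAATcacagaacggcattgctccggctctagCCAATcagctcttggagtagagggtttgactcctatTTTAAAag
Ube2c, chr2:164769809-164769953, plus strand: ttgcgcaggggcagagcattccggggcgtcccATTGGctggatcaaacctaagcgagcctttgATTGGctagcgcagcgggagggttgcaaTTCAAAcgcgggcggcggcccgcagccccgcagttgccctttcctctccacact
Mki67, chr7:135716380-135716579, minus strand: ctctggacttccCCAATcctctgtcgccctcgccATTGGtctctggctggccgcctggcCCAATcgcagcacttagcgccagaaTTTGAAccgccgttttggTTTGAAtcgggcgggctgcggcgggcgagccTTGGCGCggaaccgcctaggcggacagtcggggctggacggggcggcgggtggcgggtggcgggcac
Ccnb2, chr9:70421530-70421674, minus strand: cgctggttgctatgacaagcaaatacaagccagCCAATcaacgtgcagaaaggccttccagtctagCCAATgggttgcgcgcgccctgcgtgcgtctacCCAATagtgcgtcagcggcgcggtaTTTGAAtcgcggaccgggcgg
Prc1, chr7:80294331-80294475, plus strand: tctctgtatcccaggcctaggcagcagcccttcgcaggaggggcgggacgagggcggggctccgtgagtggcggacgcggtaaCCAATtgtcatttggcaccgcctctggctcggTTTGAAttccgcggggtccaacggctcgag
Cdca8, chr4:124936893-124937037, minus strand: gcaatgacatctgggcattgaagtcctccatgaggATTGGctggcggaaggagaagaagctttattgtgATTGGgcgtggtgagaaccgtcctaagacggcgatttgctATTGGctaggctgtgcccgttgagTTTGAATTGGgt
Cdt1, chr8:122567955-122568044, plus strand: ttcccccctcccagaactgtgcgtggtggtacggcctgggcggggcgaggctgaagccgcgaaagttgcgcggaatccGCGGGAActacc
Rrm1, chr7:102441575-102441719, plus strand: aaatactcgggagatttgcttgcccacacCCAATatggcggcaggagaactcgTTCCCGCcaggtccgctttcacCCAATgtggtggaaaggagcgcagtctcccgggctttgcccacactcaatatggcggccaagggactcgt

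In Cdca8 the last CHR match and a CCAAT match overlap by 1 letter. RefSeq promoters were matched for 43 of the 52 members, with 48 promoters of 300 bases among them. A CCAAT box stood in 75% of the 48 and in 37.4% of all 32851 promoters in the table, the CHR letters in 58.3% and 27.6%, and the E2F-like letters in 25% and 6.81%. Both CCAAT and CHR letters stood in 10 of 11 promoters of chromosome, kinetochore and spindle genes and in 7 of 9 of mitotic kinases and checkpoint genes, against 3 of 12 of replication genes. The E2F-like letters stood in 7 of 12 promoters of replication genes, 0 of 9 of mitotic kinases and checkpoint genes, and 1 of 11 of chromosome and spindle genes. CCAAT and CHR letters stood together in 25 of the 48 member promoters and in 3525 of all 32851. Of the members named below as lower, 6 had a promoter in the table, and all 7 of their promoters held both. The Prc1 entries among them, starting at 80294201 and 80294226, overlap and hold the same matches. All of these genes but Ccnb2 belong to the mitotic kinase or chromosome roles, where most promoters held both. Of the members named as higher, 4 genes had 6 promoters in the table, of which 0 held CHR letters, 2 a CCAAT box and 3 E2F-like letters. Whether the lower or higher genes differ in these letters from others of their roles was not tested. A match describes letters only, and no match says only that these letters are not in the window.

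Signals were one-colour intensities. All levels below are log2 of the processed signal minus the array's 75th percentile, so that 0 is the brightness of the probe at that percentile. Differences are anti-CD4 minus control on this log2 scale, and levels of different genes cannot be compared because each probe binds with its own strength. All 8 arrays lay on 1 slide, anti-CD4 arrays in its first row and control arrays in the other, and the effect of the row cannot be told apart from that of the antibody. The share of probes well above background was 51.2% to 54.3% in the anti-CD4 arrays and 51.1% to 54.0% in the controls, and no spot was saturated. The median spread of repeated probes was 4.69% ± 0.12 on the anti-CD4 arrays and 3.88% ± 0.21 on the control arrays (coefficient of variation, SD, n = 4 each). The number of arrays limits the precision. All 12 listed genes of hippocampal neurons were measured, which does not tell the hippocampus from other brain regions, since none was compared. Cd4 itself differed by 0.02 and did not pass the test, which does not measure the depletion of T cells, since 7 of 10 T lymphocyte genes were too dim.

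No cell cycle gene passed the test after adjustment over all 23608 genes and unnamed probes (limma, 0 of 39), and no other gene did either (0%). At an unadjusted p under 0.05, 7 members read lower in the anti-CD4 group, 17.9% of the 39, where 6.83% of everything tested read lower by this rule. They were Ccna2, Aurka, Ube2c, Mki67, Ccnb2, Prc1 and Cdca8, all of them genes of S phase, G2 or mitosis. Another 5 read higher, 12.8% of the members against 6.17% of everything tested. These were the replication genes Cdt1 and Rrm1, cyclin D1 (Ccnd1) and the Cdk inhibitors Cdkn1a and Cdkn2c. With each array centred on its median the split was 6 lower and 5 higher among members, and 958 lower and 2068 higher among everything tested, against 1612 lower and 1456 higher as reported. In whole tissue, fewer cells of a kind and less RNA per cell cannot be told apart.

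**Figure D1:**
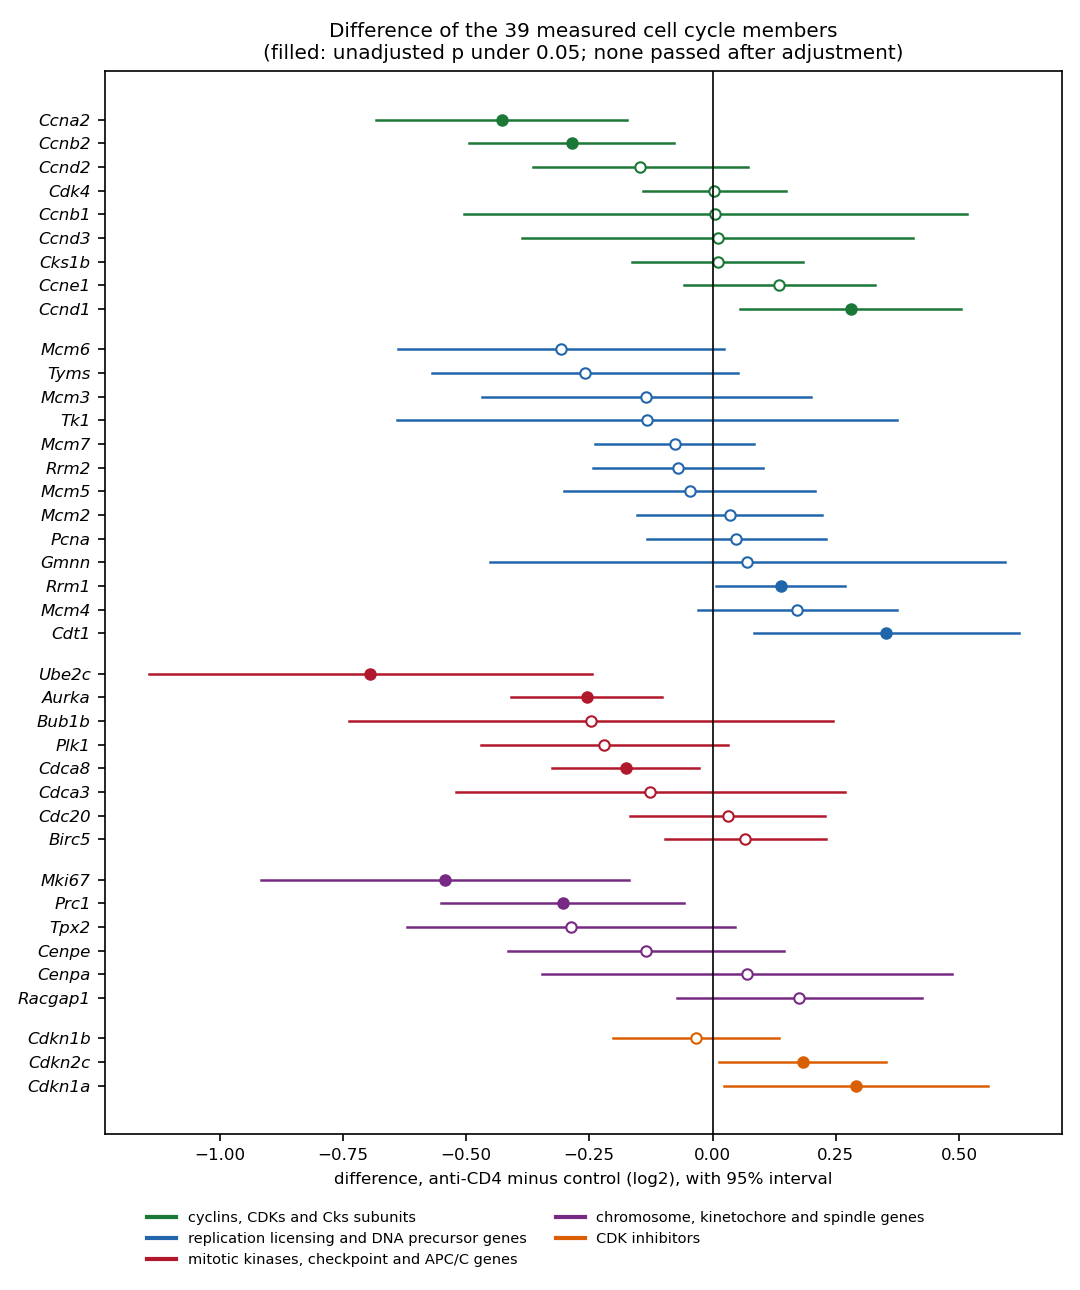
Difference of each of the 39 measured members (anti-CD4 minus control, log2 scale, x axis), by role; points are fitted differences and lines their 95% intervals from limma. Filled points mark the 12 members with an unadjusted p under 0.05, 7 on the lower side and 5 on the higher side, and the other 27 intervals include 0, with centres between -0.31 and 0.18.

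Among the cyclins and their kinases, cyclin A2 (Ccna2), the partner of Cdk2 and Cdk1 from S phase to mitosis, had the smallest p of all members. Its levels were -2.44, -2.62, -2.47 and -2.60 in anti-CD4 replicates 1 to 4, against -1.90, -2.06, -2.41 and -2.06 in control replicates 1 to 4. The groups did not overlap, and control replicate 3 lay closest to the anti-CD4 arrays. The difference was -0.43 ± 0.111 (SE; unadjusted p = 0.00444, adjusted p = 0.247, limma), or 0.744 times the control level, and -0.28 with normexp and -0.22 with the authors' value table. The probe lies at chromosome 3, 36463978 to 36464037 (mm9, as in the files; positions within exons were not determined here, since the annotation used is of another build).

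Cyclin B2 (Ccnb2), a mitotic cyclin, read -1.73, -1.92, -1.79 and -1.96 in the anti-CD4 arrays, against -1.55, -1.47, -1.77 and -1.46 in the controls. The groups overlapped through control replicate 3, the array in which Ccna2 was also lowest among controls. The Ccnb2 difference was -0.29 ± 0.091 (SE; adjusted p = 0.272, limma). Cyclin B1 (Ccnb1), its close relative, differed by 0.01 with a 95% interval of -0.50 to 0.52, so that a difference of the size of Ccnb2 lies inside it. Cdk1, the kinase of both, was too dim to test, and so were Cdk2, Cdk6, cyclin E2 (Ccne2) and Cks2.

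Cyclin D1 (Ccnd1), which starts the commitment to division, read 3.01, 2.82, 2.74 and 2.75 in the anti-CD4 arrays, against 2.41, 2.76, 2.45 and 2.57 in the controls. Control replicate 2 lay within the anti-CD4 range and the other controls lay below it. The difference was 0.28 ± 0.098 (SE; adjusted p = 0.300, limma). The other D cyclins gave smaller differences. Cyclin D2 (Ccnd2) read 2.85, 2.98, 3.26 and 2.92 in the anti-CD4 arrays, against 3.14, 3.15, 3.07 and 3.24 in the controls, a difference of -0.15 with a 95% interval of -0.36 to 0.07. Cyclin D3 (Ccnd3) read 2.31, 2.48, 3.03 and 2.67 in the anti-CD4 arrays, against 2.65, 2.43, 2.43 and 2.94 in the controls, with a difference of 0.01 (interval -0.39 to 0.41). The interval of Ccnd2 excludes the difference of Ccnd1, while that of Ccnd3 does not.

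Cdk4, the kinase partner of the D cyclins, read 3.28, 3.18, 3.23 and 3.21 in the anti-CD4 arrays, against 3.21, 3.12, 3.30 and 3.27 in the controls. The arrays of both groups mixed, and the difference was 0.0037 with a 95% interval of -0.14 to 0.15. The dimmer Cdk4 probes differed by -0.12 and -0.08. Cyclin E1 (Ccne1), the partner of Cdk2 at the start of replication, differed by 0.14 and 0.15 on its 2 probes, and its brighter probe had an unadjusted p of 0.146 (limma). Cks1b, a small subunit of Cdk complexes, differed by 0.01. Over the 9 measured cyclins, kinases and Cks subunits, 3 were below 0 and 6 above, with a median difference of 0.0057, beside 0.0068 over everything tested.

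All 13 replication and DNA precursor genes were measured, with 7 below 0, 6 above and a median difference of -0.05. Cdt1, which loads the Mcm helicase onto origins, read -0.93, -0.89, -1.28 and -0.69 in the anti-CD4 arrays, against -1.35, -1.27, -1.25 and -1.32 in the controls. Anti-CD4 replicate 3 lay among the controls and the other anti-CD4 arrays above all of them. The Cdt1 difference was 0.35 ± 0.118 (SE; adjusted p = 0.285, limma), and 0.46 without anti-CD4 replicate 3 (adjusted p = 0.111, limma), which was the smallest adjusted p among the 16 members refitted under the 21 other settings. Geminin (Gmnn), the protein that inhibits Cdt1, differed by 0.07 (interval -0.45 to 0.59), with control replicate 3 at -2.03 and every other array between -3.14 and -2.65.

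Rrm1, the large subunit of ribonucleotide reductase, which makes DNA precursors, read 0.42, 0.42, 0.41 and 0.35 in the anti-CD4 arrays, against 0.29, 0.27, 0.30 and 0.19 in the controls. It was the only member whose anti-CD4 arrays all lay above the controls (1 of 39, 2.56%, where 3.82% of everything tested did so). Its difference of 0.14 ± 0.057 (SE; adjusted p = 0.360, limma) was also the smallest among the 12. Rrm2, the small subunit that cells make in S phase, differed by -0.07 (interval -0.24 to 0.10).

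The Mcm subunits form a single ring, yet their differences lay on both sides of 0. Mcm6 read 2.44, 2.10, 2.45 and 2.19 in the anti-CD4 arrays, against 2.30, 2.90, 2.74 and 2.48 in the controls, a difference of -0.31 (unadjusted p = 0.0640, limma). Mcm4 differed by 0.17 (unadjusted p = 0.0842, limma), Mcm3 by -0.13, Mcm7 by -0.08, Mcm5 by -0.05 and Mcm2 by 0.03. None passed the unadjusted threshold in the reported fit. Mcm6 did pass it under some other settings, among them quantile normalization, normexp, array weights and the authors' value table. Mcm4 passed it with normexp and the authors' value table, among others. Pcna, the sliding clamp of DNA polymerase, differed by 0.05 with an interval of -0.13 to 0.23. Thymidylate synthase (Tyms) and thymidine kinase 1 (Tk1), which supply thymidine nucleotides, differed by -0.26 and -0.13 (well above background on 7 and 5 of 8 arrays).

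Of the 10 mitotic kinases, checkpoint and APC/C genes, 8 were measured, 6 of them below 0, with a median difference of -0.20. Aurora A (Aurka), the kinase of centrosomes and spindle poles, read -1.54, -1.75, -1.65 and -1.62 in the anti-CD4 arrays, against -1.46, -1.39, -1.33 and -1.35 in the controls. Every anti-CD4 array lay below every control array. The difference was -0.26 ± 0.067 (SE; adjusted p = 0.247, limma). With normexp background correction it was -0.14 (unadjusted p = 0.141, limma) and with the authors' value table -0.13 (unadjusted p = 0.146, limma).

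Ube2c, the ubiquitin-conjugating enzyme of the APC/C, had the largest difference of the 39, -0.69 ± 0.197 (SE; adjusted p = 0.252, limma), or 0.618 times the control level. It read -3.99, -3.74, -3.15 and -3.71 in the anti-CD4 arrays, against -2.98, -2.82, -2.69 and -3.34 in the controls. Anti-CD4 replicate 3 lay among the controls and control replicate 4 was the lowest of its group. A second Ube2c probe differed by -0.57 (unadjusted p = 0.101, limma). Both probes are dim, and normexp gave -0.26 and the authors' value table, whose values appear not to be background-subtracted, gave -0.21.

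Borealin (Cdca8), a subunit of the chromosomal passenger complex that corrects chromosome attachment, read -1.41, -1.46, -1.34 and -1.40 in the anti-CD4 arrays, against -1.33, -1.26, -1.14 and -1.18 in the controls. The groups did not overlap, and anti-CD4 replicate 3 and control replicate 1 lay close together. The difference was -0.18 ± 0.065 (SE; adjusted p = 0.324, limma), and -0.10 with the authors' value table. The unadjusted p was 0.05 or more under 11 of 21 other settings, among them median scaling, normexp, the authors' value table and leaving out anti-CD4 replicate 1 or 2 or control replicate 3 or 4. A second Cdca8 probe, well above background on 3 arrays of each group, differed by -0.36 (unadjusted p = 0.271, limma). Survivin (Birc5), a subunit of the same complex, differed by 0.07 (interval -0.10 to 0.23), and Aurora B (Aurkb), its kinase, was too dim. Plk1, a kinase of mitotic entry, differed by -0.22 (unadjusted p = 0.0778, limma), the checkpoint kinase Bub1b by -0.25, Cdca3 by -0.13 and Cdc20, the activator of the APC/C, by 0.03. Bub1 was too dim.

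Of the 12 chromosome, kinetochore and spindle genes 6 were measured, 4 of them below 0, with a median difference of -0.21. Mki67, the Ki-67 protein of dividing cells that coats mitotic chromosomes, read -1.96, -2.47, -1.95 and -2.32 in the anti-CD4 arrays, against -1.44, -1.38, -1.81 and -1.90 in the controls. The groups did not overlap, though anti-CD4 replicates 1 and 3 came close to control replicate 4. The difference was -0.54 ± 0.164 (SE; adjusted p = 0.263, limma), or 0.687 times the control level. A second probe, at chromosome 7, 142884764 to 142884823 (mm9), read -2.86, -3.37, -2.95 and -3.18 in the anti-CD4 arrays, against -2.43, -2.24, -3.07 and -2.67 in the controls, a difference of -0.49 (unadjusted p = 0.0275, limma) with control replicate 3 inside the anti-CD4 range.

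Prc1, which bundles microtubules in the middle of the dividing spindle, read -2.37, -2.41, -2.16 and -2.65 in the anti-CD4 arrays, against -1.97, -2.03, -2.19 and -2.18 in the controls. Anti-CD4 replicate 3 lay just above control replicates 3 and 4. The difference was -0.30 ± 0.108 (SE; adjusted p = 0.307, limma), and -0.19 with the authors' value table. Tpx2, which activates Aurora A at the spindle, differed by -0.29 (unadjusted p = 0.0821, limma), and the kinetochore motor Cenpe by -0.13. Racgap1, which acts beside Prc1 in cytokinesis, differed by 0.18 and 0.11 on its 2 probes, and Cenpa, the histone of centromeres, by 0.07. Topoisomerase IIα (Top2a), a common marker of dividing cells, was well above background on no array, with processed signals between 9.08 and 38.8, and so its level in either group is not known.

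The inhibitors of cyclin-dependent kinases were all measured. Cdkn1a, an inhibitor induced by p53 and by stress, read -0.72, -0.72, -0.78 and -0.58 in the anti-CD4 arrays, against -0.92, -1.32, -0.96 and -0.77 in the controls. Control replicate 4 lay just above anti-CD4 replicate 3, so the groups overlapped, and control replicate 2 was the lowest array. The difference was 0.29 ± 0.117 (SE; adjusted p = 0.352, limma), 0.18 without control replicate 2 and 0.19 with the authors' value table. Cdkn2c, which blocks Cdk4 and Cdk6, read -2.22, -2.37, -2.48 and -2.36 in the anti-CD4 arrays, against -2.55, -2.64, -2.47 and -2.50 in the controls, a difference of 0.18 ± 0.074 (SE; adjusted p = 0.355, limma). Only anti-CD4 replicate 3 lay inside the control range.

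Cdkn1b, the inhibitor that holds many resting cells out of the cycle, read 2.64, 2.48, 2.65 and 2.56 in the anti-CD4 arrays, against 2.47, 2.68, 2.66 and 2.65 in the controls. The difference was -0.03 with an interval of -0.20 to 0.13. Its dimmer probe, at another place in the gene, gave another value: -2.48, -2.54, -2.44 and -2.83 in the anti-CD4 arrays, against -2.43, -1.83, -2.18 and -2.06 in the controls, a difference of -0.45 (unadjusted p = 0.0116, limma) in which every anti-CD4 array lay below every control array. With the mean of both probes Cdkn1b differed by -0.24 (unadjusted p = 0.0410, limma). The probes of Cdkn1b therefore disagree on whether its level differs.

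**Figure D2:**
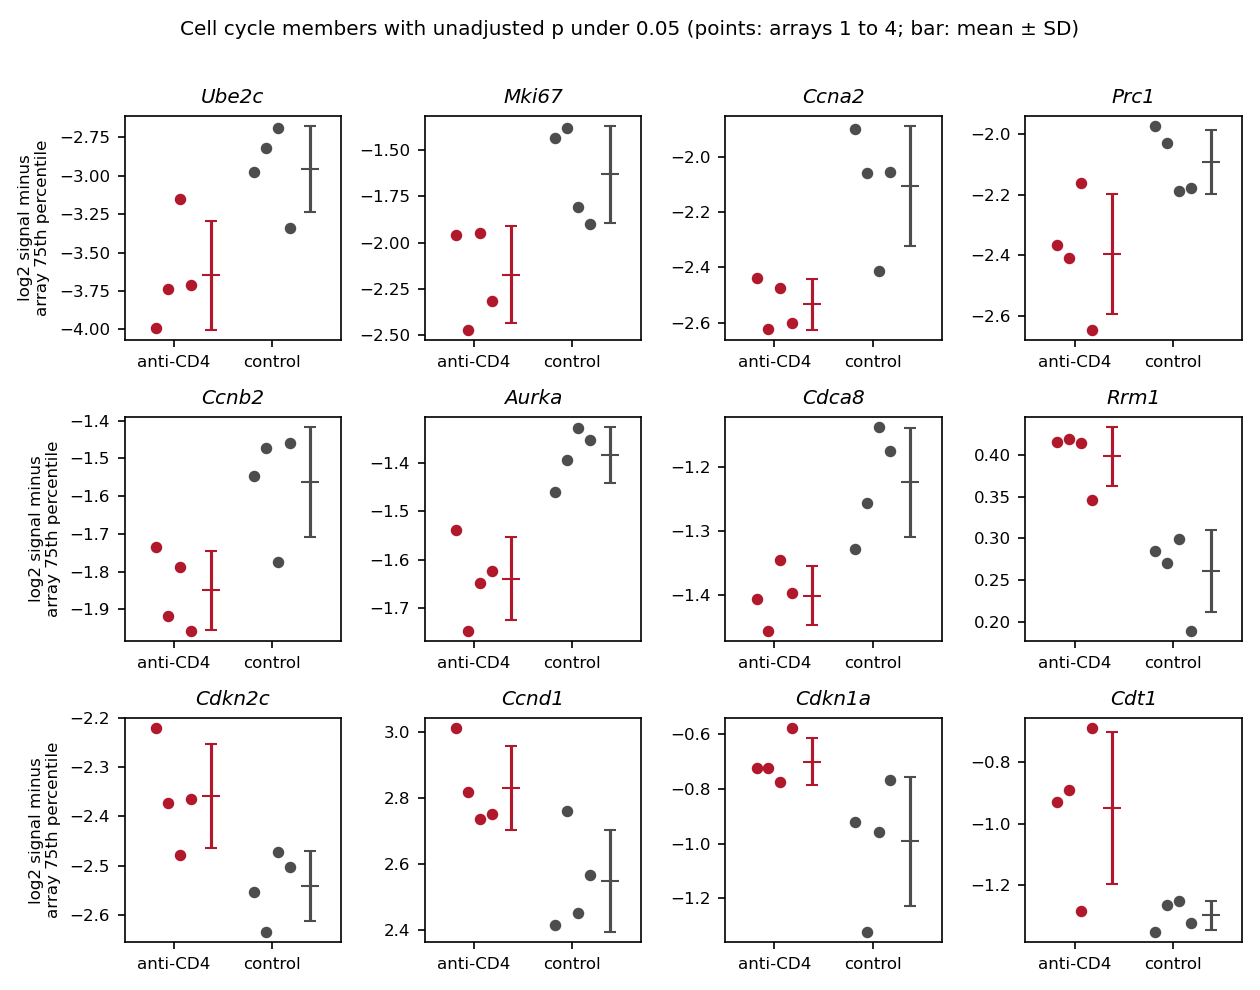
Level of each of the 12 members with an unadjusted p under 0.05 on every array (y axis, log2 signal minus the array's 75th percentile; each panel has its own scale that does not start at 0). Points are arrays in the order of replicates 1 to 4 and bars are the mean ± SD of 4 arrays. Ccna2, Mki67, Aurka and Cdca8 are lower on every anti-CD4 array than on any control array, and Rrm1 is higher.

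Counted over all measured members, 21 of 39 were below 0 and 18 above, with a median difference of -0.05 beside 0.0068 over everything tested. In 4 members, 10.3% of the 39, every anti-CD4 array lay below every control array, where 4.36% of everything tested did so. The median spread within a group was 0.13 in the anti-CD4 arrays and 0.15 in the controls (SD), about that of everything tested (0.13 and 0.14). Of the 39 members, 3, 8, 6 and 6 were at their lowest in anti-CD4 replicates 1 to 4, against 7, 3, 2 and 4 in control replicates 1 to 4. Of everything tested, 7.21% to 15.2% was at its lowest in each anti-CD4 array, and 6.94% to 19.6% in each control array.

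The mean level of the 8 mitotic kinases and checkpoint genes, each centred on its mean over the 8 arrays, was -0.09, -0.25, 0.01 and -0.07 in the anti-CD4 arrays, against 0.13, 0.16, 0.10 and 0.02 in the controls. The groups did not overlap, and anti-CD4 replicate 3 came close to control replicate 4. For the 6 chromosome and spindle genes the means were 0.04, -0.17, -0.08 and -0.14 in the anti-CD4 arrays, against 0.12, 0.22, 0.12 and -0.12 in the controls, with control replicate 4 inside the anti-CD4 range. The 3 inhibitors gave means of 0.13, 0.03, 0.03 and 0.10 in the anti-CD4 arrays, against -0.10, -0.19, -0.02 and 0.03 in the controls. These did not overlap, but anti-CD4 replicate 2 stood at 0.0277 and control replicate 4 at 0.0274. They use the brighter Cdkn1b probe only, and leave out its dimmer probe, which read lower on every anti-CD4 array. The replication genes ranged from -0.06 to 0.09 in the anti-CD4 arrays and from -0.09 to 0.11 in the controls.

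**Figure D3:**
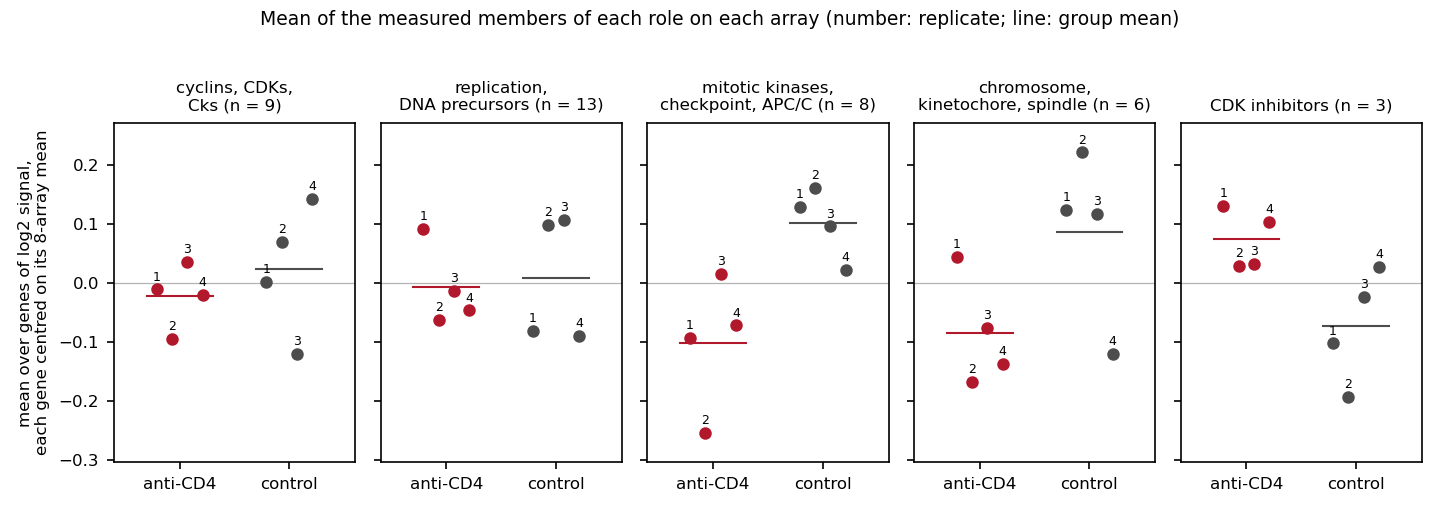
Mean level of the measured members of each role on each array (y axis, log2, each gene centred on its 8-array mean; number beside a point: replicate; line: mean of the 4 arrays). The mitotic kinase and checkpoint genes lie between -0.25 and 0.01 in the anti-CD4 arrays and between 0.02 and 0.16 in the controls, while the replication genes and the cyclins mix.

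Of 10 members with more than 1 measured probe, 8 had differences of the same sign on all their probes, and Cdk4 and Cks1b did not. Just inside the limit of 4 arrays stood Tk1, well above background on 3 anti-CD4 arrays and 2 control arrays. Just outside it stood Kif20a, a motor of cytokinesis, well above background on 1 anti-CD4 array and 2 control arrays with signals of 33.4 to 81.0. The other too dim members were the kinesins Kif11 and Kif23, the centromere protein Cenpf, the spindle protein Nusap1, and Top2a, Aurkb, Bub1, Cdk1, Cdk2, Cdk6, Ccne2 and Cks2. For 9 of these 12 no probe was well above background on any array of either group, Cdk1 was so on 1 control array, and Cdk2 and Nusap1 each on 2 control arrays.

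Other genes of the cycle were taken from lists by function, and the shares below are of the measured genes of a list. Over everything tested, 6.83% read lower and 6.17% higher at an unadjusted p under 0.05. Of 50 other mitosis genes 27 were measured, with 1 lower (3.70%) and 3 higher (11.1%) by this rule and a median difference of -0.06. The lower gene was Anln, a scaffold of the cleavage furrow that myelinating cells also express, at -0.49, and the higher were Zwint, a kinetochore protein that is abundant in neurons, at 0.35, the kinase Cit at 0.53 and Incenp, a partner of Cdca8, at 0.18. Of 42 other replication genes 34 were measured, 2 lower (5.88%) and 3 higher (8.82%), with a median of -0.01. Orc4, a subunit of the origin recognition complex, differed by -0.32, while Rpa2, which coats single-stranded DNA, differed by 0.22, the flap nuclease Fen1 by 0.24 and the polymerase subunit Pold2 by 0.21.

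Of 34 regulators of the cycle 29 were measured, 5 lower (17.2%) and 3 higher (10.3%), with a median of -0.05. By the same rule 6.83% of everything tested read lower and 6.17% higher. Mycn, which drives progenitor division, differed by -0.30, Lin37, a subunit of MuvB, by -0.19, and E2f5, a repressor of the E2F family, by -0.31, while E2f2, an activator of that family, differed by 0.32. Of 20 targets of p53 other than Cdkn1a 19 were measured, 0 lower and 1 higher (5.26%) at an unadjusted p under 0.05, with a median of 0.0099. The higher gene was Phlda3 at 0.19. Ccng1 differed by -0.14 (unadjusted p = 0.0566, limma), and every anti-CD4 array lay below every control array. It was the only gene of this list without overlap (5.26% of the list, where 4.36% of everything tested was lower without overlap). Bax and Aen differed by 0.20 and 0.11, with groups that overlapped. None of the genes in these 4 lists passed after adjustment (limma).

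Marker lists of cell types that include dividing cells were measured beside these genes, though their sums do not measure how many cells divide. For oligodendrocyte precursors, 4 of 10 genes were below 0, and the summed linear level was 34.5 to 39.8 times the 75th percentile signal in the anti-CD4 arrays, against 36.8 to 40.2 in the controls. Immature neuron and progenitor genes were below 0 in 7 of 14, with sums of 80.4 to 86.2 in the anti-CD4 arrays, against 78.5 to 84.2 in the controls. That list joins neuron genes such as Tubb3, Neurod2 and Calb2 with progenitor genes such as Sox2 and Nes, and Eomes and Draxin were too dim. Microglia genes gave 183 to 215 in the anti-CD4 arrays, against 180 to 192 in the controls. In none of these lists was more than 1 gene lower at an unadjusted p under 0.05, and their part in the result was not tested.

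Genes that mark granule neurons of the dentate gyrus were below 0 in 8 of 10 measured genes, with a median difference of -0.30. Their sums were 26.6 to 34.3 in the anti-CD4 arrays, against 29.4 to 40.9 in the controls. At an unadjusted p under 0.05, 2 of the 10 (20%) read lower and 1 (10%) higher. By this rule 6.83% of everything tested read lower and 6.17% higher. Hippocampal neuron genes, a list that shares Prox1 and C1ql2 with the dentate list, were below 0 in 11 of 12. Their sums were 430 to 567 in the anti-CD4 arrays, against 452 to 598 in the controls. Of the 12, 3 (25%) read lower by this rule, and 1 (8.33%) was lower without overlap. Oligodendrocyte genes were below 0 in 6 of 10, with sums of 307 to 416 in the anti-CD4 arrays, against 347 to 429 in the controls. Of the 10, 3 (30%) read lower by this rule, and 1 (10%) was lower without overlap. Of everything tested, 4.36% was lower without overlap. With the dentate mean of each array in the fit, a setting chosen after seeing the data, 3 of 39 members were lower at an unadjusted p under 0.05. Another 2 were higher, and 4 of the 12 were among these 5. In that fit 1048 of all 23608 genes and unnamed probes were lower and 1239 higher by this rule. Ccna2 then differed by -0.40, Aurka by -0.20, Ube2c by -0.59 and Mki67 by -0.34 (Mki67 missed the unadjusted threshold).

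Choroid plexus signal differed between arrays of both groups. The transthyretin gene Ttr gave signals of 1675, 147188, 274131 and 156927 in the anti-CD4 arrays, against 264038, 5576, 538 and 224770 in the controls. With Ttr in the fit, also chosen after seeing the data, 11 of the 12 members stayed under an unadjusted p of 0.05 and Cdkn1a did not. Red blood cell genes were above 0 in 5 of 7 measured, all 5 (71.4%) with an unadjusted p under 0.05 and 4 (57.1%) without overlap. Another gene of that list was lower without overlap (14.3%). The median difference was 0.49, with sums of 192 to 212 in the anti-CD4 arrays, against 157 to 194 in the controls. Of 11 endothelium and pericyte genes 4 (36.4%) were higher at an unadjusted p under 0.05, 3 of them (27.3%) without overlap. Their sums were 42.2 to 48.4 in the anti-CD4 arrays, against 40.0 to 44.9 in the controls. Of everything tested, 6.17% was higher at that p, 3.82% higher without overlap and 4.36% lower without overlap. The part of red blood cell and vessel genes in the result was not tested.

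**Figure D4:**
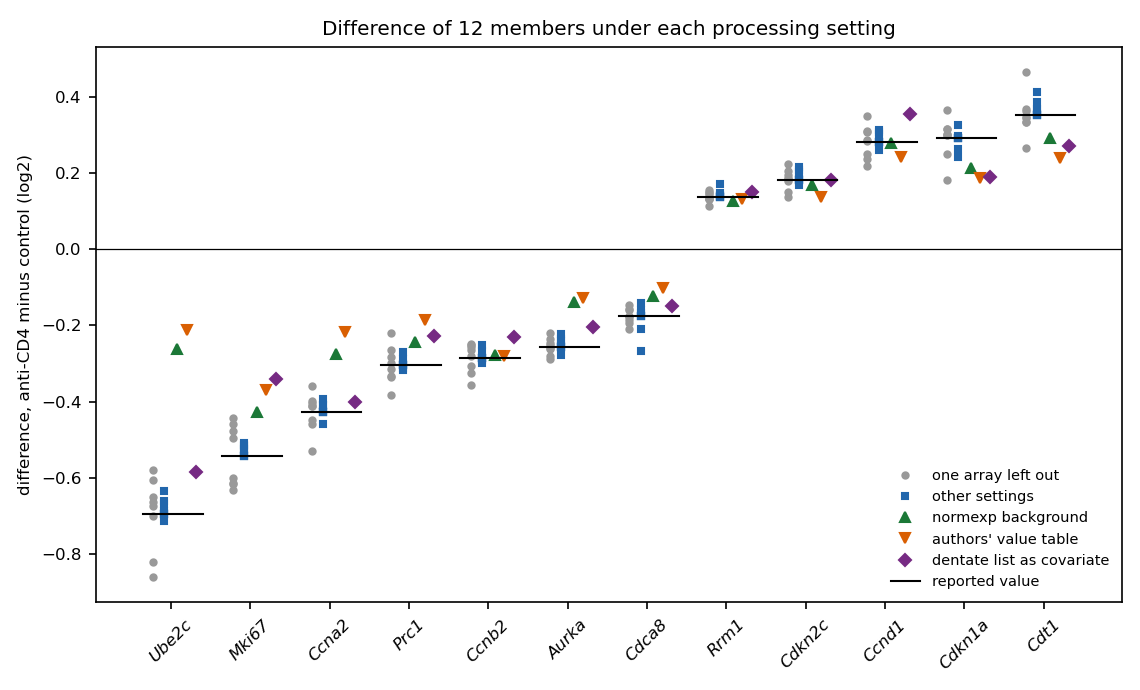
Difference of the 12 members (anti-CD4 minus control, log2 scale, y axis) under every processing setting; the black line is the reported value, grey points leave out 1 array each, and the other symbols are as in the legend. All 12 keep their sign, and Ube2c moves most, from -0.86 without anti-CD4 replicate 3 to -0.21 with the authors' value table.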

How the data were processed

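Hippocampal RNA of 8 samples was measured on one-colour Agilent arrays (design 028005). The deposited intensities are processed signals from Feature Extraction 10.7.3.1, background-subtracted, per the file headers. The authors' deposited value table holds log2 values of the same arrays, brought close to a common distribution; limma is named in the submitters' processing notes, while its remaining steps are not stated there. It served as an alternative only. Levels were log2 of the processed signal minus the array's 75th percentile, after leaving out control and outlier spots. Probes well above background on at least 4 of 8 arrays were kept (29406), and the brightest probe stood for a gene, giving 23608 genes and unnamed probes. The groups of 4 were compared with limma 3.58.1 in R 4.3.3 (lmFit, eBayes), with Benjamini-Hochberg adjustment over all of them and a threshold of 0.05. Genes were named through RefSeq accessions or symbols in the files. Values on every array are given for members with an unadjusted p under 0.05 or groups without overlap, the Cdk inhibitors, the D cyclins, Cdk4 and Mki67. Top2a is given by its signal range. Up to 4 genes of smallest p in each other list of cycle genes or p53 targets are given by their differences. Other members appear by count, and those printed in full beyond this rule (Mcm6) or added by value were chosen after their values were seen. The members, lists and tests were chosen with earlier results of these data known. The procedure was tested on simulated data. Alternatives changed scaling, background, filter, probe choice, variance model and the arrays used.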

Additional observations from a re-analysis of the deposited data

Results flagged for a closer look

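In 4 of 90 groups of 4 arrays, 4.44%, a single array stood far from the other 3 (Dixon's test), and chance alone gives about 1 in 20. In the anti-CD4 group, Rrm1 read 0.3461 in replicate 4, with the others between 0.4143 and 0.4191. Tk1, which is close to background, read -4.8821 in anti-CD4 replicate 4, with the others between -4.0910 and -3.9488. In the control group, Gmnn read -2.0344 in replicate 3, with the others between -3.1362 and -3.0507. Cdkn1b read 2.4695 in control replicate 1, with the others between 2.6547 and 2.6816.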

How the results depend on the processing

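No member passed the adjusted threshold under any setting (0 in each, limma), although 2 of all genes and unnamed probes did with trend and robust eBayes, 2 with the authors' value table and 11 without anti-CD4 replicate 3. At an unadjusted p under 0.05, 2 of 52 members were higher without a filter on dim probes, beside 1498 of 46571 genes and unnamed probes. With trend and robust eBayes 3 of 39 were higher, beside 1593 of 23608. With the dentate mean in the fit, 2 were higher and 3 lower, beside 1239 and 1048 of 23608. The median of the members was 0.023 in that fit, beside 0.014 over everything tested (a setting chosen after seeing the data, as was Ttr). Members higher without overlap numbered 4 of 39 with the percentile taken over probes detected on all arrays, beside 1074 of all 23608 genes and unnamed probes. They numbered 3 with median scaling (beside 1441), 3 with quantile normalization (1005), 2 with normexp (1070) and 3 with the authors' value table (1166). Members lower without overlap numbered 1 with median scaling, beside 519 of everything tested. The causes were not tested. Leaving out 1 array at a time gave 6 to 9 lower and 1 to 5 higher members at an unadjusted p under 0.05. Without anti-CD4 replicate 1 there was 1 higher member, beside 1024 of 23608 of everything tested. Members without overlap numbered 4 to 8 lower and 1 to 5 higher, with 8 and 5 without anti-CD4 replicate 3. There 1669 lower and 2256 higher of everything tested did not overlap, against 1030 and 903 with all 8 arrays. The medians of the members were -0.10 to -0.0083. Among members near 0 the sign turned: Cdkn1b was 0.00048 with median scaling and 0.043 with the dentate mean, Cdk4 was -0.010 with quantile normalization, -0.066 with the mean of its probes and -0.029 with array weights, and Ccnd3 was -0.026 with normexp, -0.075 with array weights, -0.013 with the authors' value table, -0.079 with Ttr and -0.025 with the dentate mean. With 1 array left out these ranged from -0.082 to 4.19e-07 for Cdkn1b, -0.032 to 0.029 for Cdk4 and -0.13 to 0.12 for Ccnd3. The 12 members at an unadjusted p under 0.05 kept their sign in every setting. Ccna2 and Ube2c also kept an unadjusted p under 0.05 in each, and Mki67, Ccnb2 and Cdt1 in each but the dentate mean, while Aurka, Cdca8, Cdkn1a, Cdkn2c, Ccnd1, Prc1 and Rrm1 lost it in others. Same-numbered samples correlated at -0.45, -0.29, -0.31 and 0.30, and differently numbered ones between -0.415 and 0.45. Choroid plexus signal differed between arrays of both groups, so these correlations cannot show whether the numbers pair the samples. With the replicate block 6 members were lower and 3 higher at an unadjusted p under 0.05, beside 1230 and 980 of everything tested. Dim probes such as Ube2c and the 13 members too dim to test limit what these arrays measure.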
